A study of Mus musculus with 4 samples.

Results

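The cytosolic ribosomal protein genes of mouse were measured in embryonic stem (ES) cells with and without functional Smg6. Members were the genes whose symbol was Rpl or Rps followed by a number and at most a letter a or x, together with Rplp0, Rplp1, Rplp2 and Rpsa. This rule, which used no measured value, found 75 genes among the 37224 gene identifiers of the deposited count tables, 45 of the large subunit and 30 of the small subunit. Rpl24 was not analysed here. Fau, Rack1 and Rps3a1 also encode ribosomal proteins but lay outside the symbol rule and are given separately. The study compared 2 RNA-seq libraries of wild-type ES cells with 2 libraries of Smg6-deficient ES cells. The genotype labels were wild type and Smg6 deficient, the tissue was given as embryo, and no allele, line, treatment or age was named. Nothing in the labels tells whether replicates were grown separately or are 1 clone, and p-values then reflect the spread of these libraries alone, which can be technical.

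A ribosome is built from ribosomal RNA and a set of proteins, and the large subunit joins amino acids while the small subunit reads the mRNA. The proteins are made in matched amounts, and the mRNAs of most of them begin with a run of pyrimidines (the TOP motif) through which mTORC1 controls their translation. Smg6 cuts mRNAs in nonsense-mediated decay (NMD), which removes transcripts with a stop codon recognised as premature. Several ribosomal protein genes, Rpl3 and Rpl12 among them, are known to make alternatively spliced transcripts that NMD removes. Ribosomal protein genes have also left many processed pseudogenes in the mouse genome, which resemble the spliced mRNA.

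Library totals lay between 130888768 and 155391181 counted reads. CPM below are counts scaled to library sizes after TMM, and values of a genotype are given in the order of replicates 1 and 2. Smg6 itself was measured at 95.7 and 105 CPM in wild type and 87.6 and 86.2 CPM in Smg6-deficient cells. Its Smg6-deficient libraries were the lower pair, but the log2 fold change of -0.21 (SE 0.083, edgeR adjusted p = 0.0886) did not pass the threshold of 0.05, and where the gene was altered is not stated in the labels, so gene-level counts need not show the lesion. All 11 ES cell markers examined were detected, of which 6 fell (Nanog, Dppa5a, Klf4, Esrrb, Pou5f1 and Zfp42) and 2 rose (Utf1 and Lin28a). Their summed level was 5784 and 4814 CPM in wild type and 3971 and 3870 CPM in Smg6-deficient cells. Of 10 endoderm markers 9 rose and 1 fell, with sums of 108 and 85.8 CPM in wild type and 879 and 1502 CPM in Smg6-deficient cells. Of 9 fibroblast markers 2 rose, and their sums were 1009 and 752 CPM in wild type against 1239 and 1131 CPM in Smg6-deficient cells. No marker was at 0 in all libraries. By the same test 20.5% of all tested genes rose and 19.2% fell. The part of this shift between marker sets in any result on ribosomal protein genes was not tested, and in bulk RNA fewer cells of a type and less RNA per cell cannot be told apart.

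How much sequence a gene shares with its copies may bear on the counts below, because reads were 50 nt long and the sources used here do not give how multiply aligned reads were counted. For each member, every 50-base window of a representative mRNA was searched for exact matches in the annotated transcripts of other genes (GENCODE M21, GRCm38). The shared part was 2.96% of windows for Rps3, of the mRNA entry site, and 98.6% for Rps27, the highest of all, with a median of 60.0% and 6 members over 90%. The first 120 coding bases of 4 genes show this range, with capitals for bases that lie in a 50-base window found in no other annotated gene. Rpl39, which lines the exit tunnel of the large subunit, was mostly distinct. Rps4x, of the small subunit, was distinct at its start and shared further on, and the coding starts of Rpl12 and Rps12 were shared almost throughout (over the whole mRNA, 49.4% and 90.1%).
Rpl39 (gene at chrX:37082520-37085402, minus strand): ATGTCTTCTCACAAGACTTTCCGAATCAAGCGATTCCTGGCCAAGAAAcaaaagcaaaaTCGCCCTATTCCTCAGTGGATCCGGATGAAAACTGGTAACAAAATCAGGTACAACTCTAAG
Rps4x (gene at chrX:102184941-102189394, minus strand): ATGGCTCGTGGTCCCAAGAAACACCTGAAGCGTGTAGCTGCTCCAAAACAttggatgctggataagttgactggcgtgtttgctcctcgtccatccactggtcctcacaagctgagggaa
Rpl12 (gene at chr2:32961559-32965345, plus strand): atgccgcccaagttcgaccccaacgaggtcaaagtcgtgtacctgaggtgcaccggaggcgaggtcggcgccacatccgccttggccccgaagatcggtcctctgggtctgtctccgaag
Rps12 (gene at chr10:23785183-23787275, minus strand): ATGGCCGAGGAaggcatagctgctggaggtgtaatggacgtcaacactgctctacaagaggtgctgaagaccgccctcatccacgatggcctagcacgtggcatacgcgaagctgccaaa
In these stretches 109 bases of Rpl39, 50 of Rps4x, 11 of Rps12 and 0 of Rpl12 lay in a window of their own. Windows of Rpl12 matched 15 other genes, 14 of them annotated as pseudogenes, and those of Rps12 matched 25, of which 22 were pseudogenes.

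Counted levels differed widely between members. Mean wild-type RPKM, a level per gene length, ran from 2.37 for Rpl11 to 2030 for Rpl8, a range of 857-fold, with 18 members under 10 and 7 over 500. The highest members of the large subunit were Rpl8, near the peptidyl transferase centre, Rpl4, of the exit tunnel, and Rplp1, of the stalk. Rpl8 was at 2153 and 1908 RPKM in wild type and 1921 and 1678 RPKM in Smg6-deficient cells. The deposited RPKM of replicates 2 was divided by more than their count totals. Relative to wild-type replicate 1, its denominators were 1.018 (wild type) and 1.054 (Smg6-deficient), and the totals 0.951 and 1.002. Rpl4 was at 1726 and 1626 RPKM in wild type and 1487 and 1394 RPKM in Smg6-deficient cells, and Rplp1 at 1029 and 998 RPKM in wild type and 851 and 771 RPKM in Smg6-deficient cells. In the small subunit Rps15, of the head, was at 684 and 636 RPKM in wild type and 640.0 and 569.8 RPKM in Smg6-deficient cells, and Rps26, at the exit of the mRNA channel, at 607 and 568 RPKM in wild type and 481 and 428 RPKM in Smg6-deficient cells. At the other end Rps27 had 103 counts in wild-type replicate 1, where Rpl4 had 386749. The 26 members with at most 50% of windows shared had a median of 159.9 RPKM, against 15.4 RPKM for the 49 members above 50%. Across the 75 members, Spearman's rho between mean wild-type RPKM and the shared percentage was -0.60 and Pearson's r on log10 RPKM was -0.62, given as a description, since the points share libraries and members with pseudogenes share sequence. The plot of level against shared sequence shows few members of high level at the right. Counted gene length was inferred from the deposited RPKM and divided by 1.144, its median ratio to annotated exon length. Its median over members was 1466 nt, against 729 nt for the mRNA. In some members it was below that of the mRNA, as in Rps26 (447 and 681 nt) and Rps27 (255 and 345 nt).

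**Figure D1:**
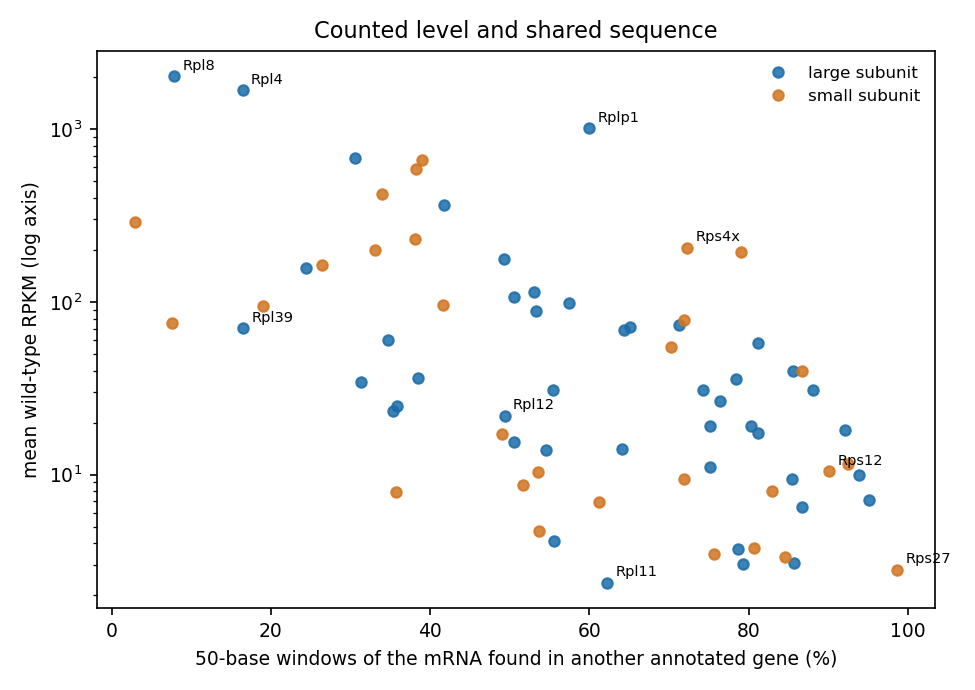
Mean wild-type RPKM on a log axis against the percentage of 50-base windows of the mRNA that occur in another annotated gene, 1 point for each of 74 members, coloured by subunit. Rpl8 (7.86% shared) and Rpl4 (16.5%) sit at the top left, and Rps27 (98.6%) at the bottom right.

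Many reads were assigned to pseudogenes. Of the members, 55 had at least 1 annotated pseudogene carrying their name, 222 in all, of which 190 had counts. In every library these pseudogenes summed to 15.5% to 16.0% of the members' own counts. For 20 of the 55 the pseudogenes held under 1% of the member's counts, and for 15 they held more than the member. The 4 pseudogenes named after Rpl19 had 11304 counts in wild-type replicate 1, or 2365% of the 478 of Rpl19 itself, and the 7 of Rps13 had 10547. These members were chosen after their values were seen. Which reads at such pseudogenes came from the parent mRNA was not tested.

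Between genotypes, ribosomal protein genes lay below wild type more often than above it, by small amounts. All 75 members passed the filter on low counts. Of them 22 fell, 5 rose and 48 did not pass (edgeR quasi-likelihood test, Benjamini-Hochberg adjusted p under 0.05 over 20895 tested genes). These are 29.3% lower and 6.67% higher, where 19.2% of all tested genes were called lower and 20.5% higher. The median log2 fold change of the members was -0.15, with an interquartile range of -0.28 to 0.0077, against 0.0080 for all tested genes. In 49 members (65.3%) both Smg6-deficient libraries were below both wild-type libraries, against 35.9% of tested genes, and in 12 (16.0%) both were above, against 37.3%. The members took 1.75% of counts in each wild-type library and 1.52% and 1.44% in Smg6-deficient replicates 1 and 2. The ranked plot shows a long run of small negative values, 4 X-linked genes far below it and a short tail of higher genes.

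**Figure D2:**
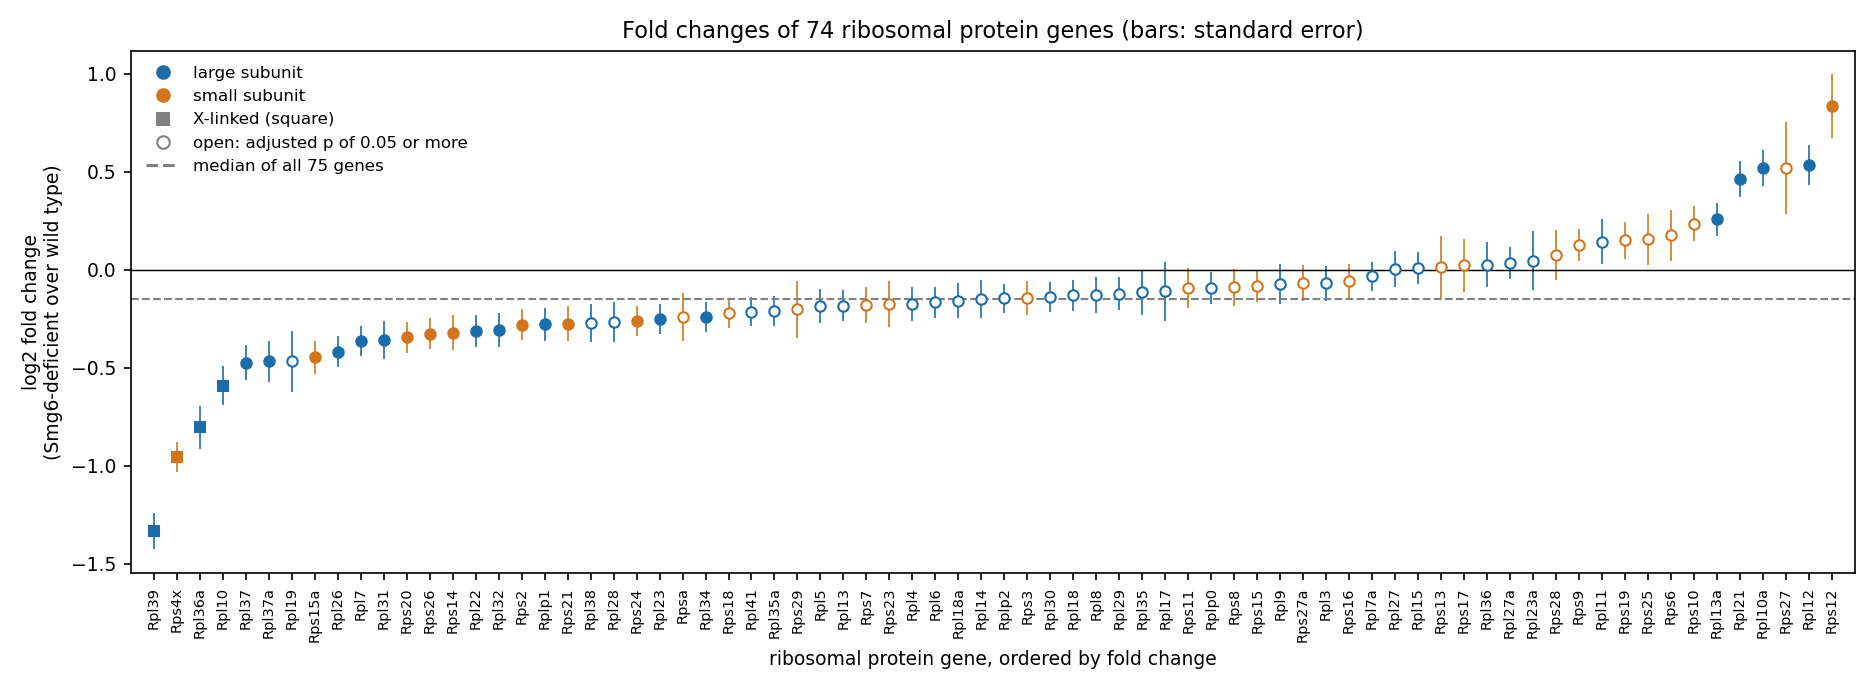
Log2 fold change (Smg6-deficient over wild type) with its standard error for 74 members in rank order, coloured by subunit, with squares for X-linked genes and open symbols for members that did not pass. The dashed line marks the median of -0.15.

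Fold changes also ran with gene length, and the sign of the members' median depended on how length was treated (the plot by gene length). Among all tested genes the median log2 fold change was -0.19 below 1000 nt of counted length, -0.077 from 1000 to 2000 nt, 0.032 from 2000 to 4000 nt and 0.12 above. Members were short, with a median counted length of 1466 nt against 2942 nt for all tested genes. Within the same bands their medians were -0.14 (24 members), -0.21 (27), -0.14 (19) and -0.14 (5). In the shortest band the members' median was above that of all genes, and in the 3 longer bands it was below. With a curve of fold change on length removed, the members' median turned to 0.035 and 9 fell while 8 rose, and the median of all tested genes became 0.054. With a curve less drawn by genes of extreme fold change, chosen after seeing the data, the members' median was -0.083, with 16 lower and 5 higher. All tested genes then had a median of -0.014. The shares of all tested genes called under these length-corrected fits are not given here. The 19.2% lower and 20.5% higher belong to the uncorrected fit. Many calls were lost without Smg6-deficient replicate 1 or 2, where the members' medians were -0.17 and -0.11. Without wild-type replicates 1 and 2 the medians were -0.14 and -0.19. Each of these fits left 1 library in a group, so its spread came from the other group alone. The 4 X-linked falls held under all 20 alternatives and 0 of the 18 autosomal falls did, with the calls drawn in the bar plot.

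**Figure D3:**
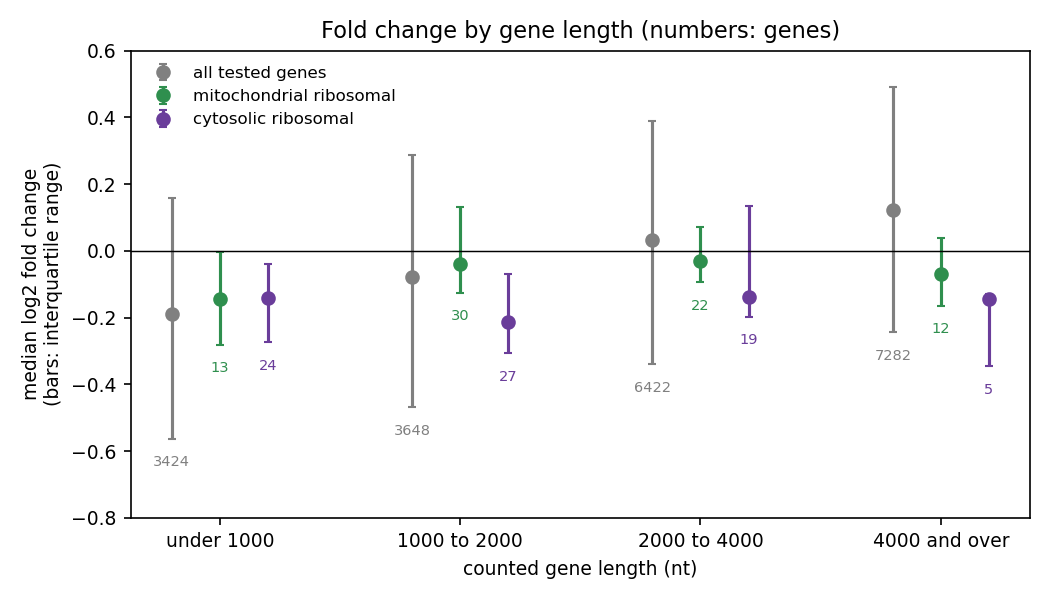
Median log2 fold change with its interquartile range by counted gene length, for all tested genes, mitochondrial ribosomal protein genes and cytosolic ribosomal protein genes, with the number of genes below each bar. All tested genes run from -0.19 in the shortest band to 0.12 in the longest, and the cytosolic genes stay between -0.21 and -0.14.

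**Figure D4:**
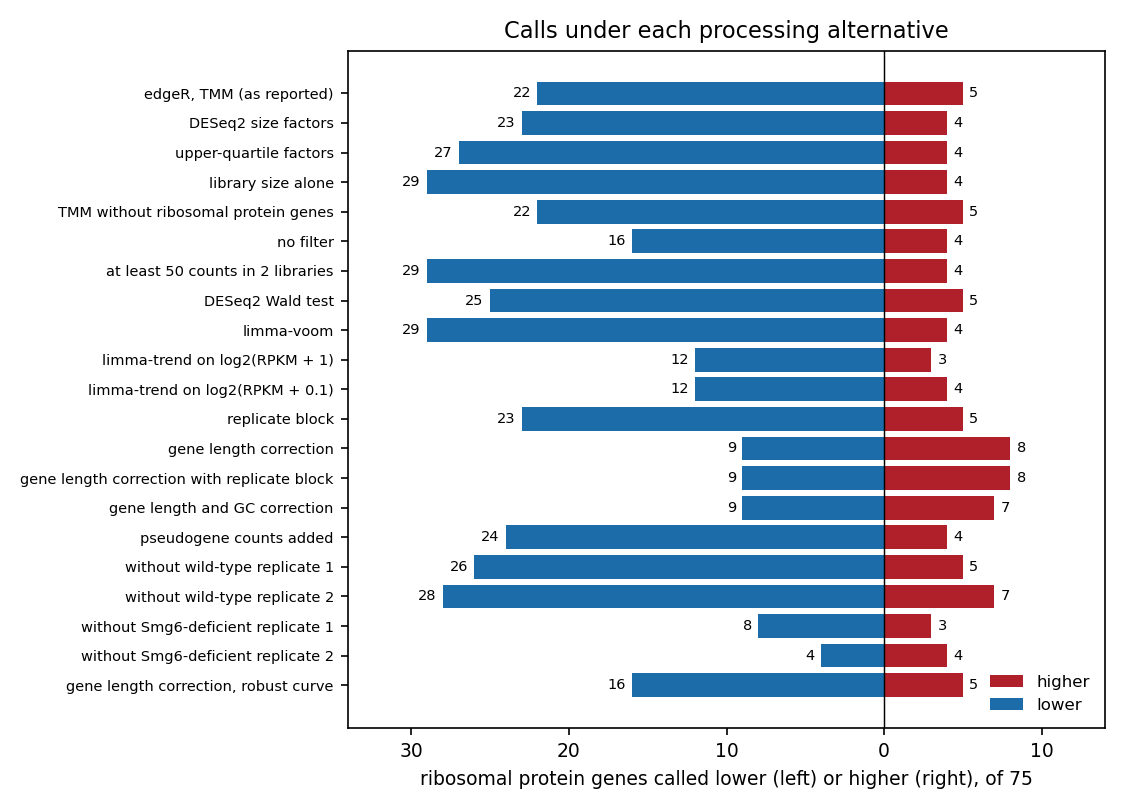
Number of the 75 members called lower (left) and higher (right) under the reported edgeR test and each of 20 alternatives. Lower calls range from 4 without Smg6-deficient replicate 2 to 29 with library size alone.

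The 4 X-linked members fell in all 20 alternatives and were the 4 lowest of the 75. Rpl39, a tunnel protein of the large subunit (chrX:37082520-37085402), was at 113 and 122 CPM in wild type and 49.0 and 44.2 CPM in Smg6-deficient cells. Its log2 fold change was -1.33 (SE 0.091, edgeR adjusted p = 0.000258), and its level dropped by 60.3%. Rps4x, of the small subunit (chrX:102184941-102189394), was at 388 and 392 CPM in wild type and 203 and 199 CPM in Smg6-deficient cells, with a log2 fold change of -0.96 (SE 0.078, edgeR adjusted p = 0.000384). Replicates of each gene lay close together and the genotypes were far apart. Rpl36a, near the exit site for tRNA (chrX:134585654-134588062), was at 17.2 and 19.3 CPM in wild type and 10.3 and 10.6 CPM in Smg6-deficient cells, with a log2 fold change of -0.80 (SE 0.11, edgeR adjusted p = 0.00212). Rpl10, which joins the large subunit late in its assembly (chrX:74270812-74273135), was at 40.6 and 45.5 CPM in wild type and 27.2 and 30.02 CPM in Smg6-deficient cells, with a log2 fold change of -0.59 (SE 0.10, edgeR adjusted p = 0.00475). In none of the 4 did the libraries of the genotypes overlap, as the plot of levels by library shows. X-linked genes as a whole moved the same way, since 590 of the 1040 X-linked genes tested fell (56.7%) and their median log2 fold change was -0.76, against -0.88 for the 4 members. The 71 autosomal members had a median of -0.14, with 18 lower and 5 higher.

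**Figure D5:**
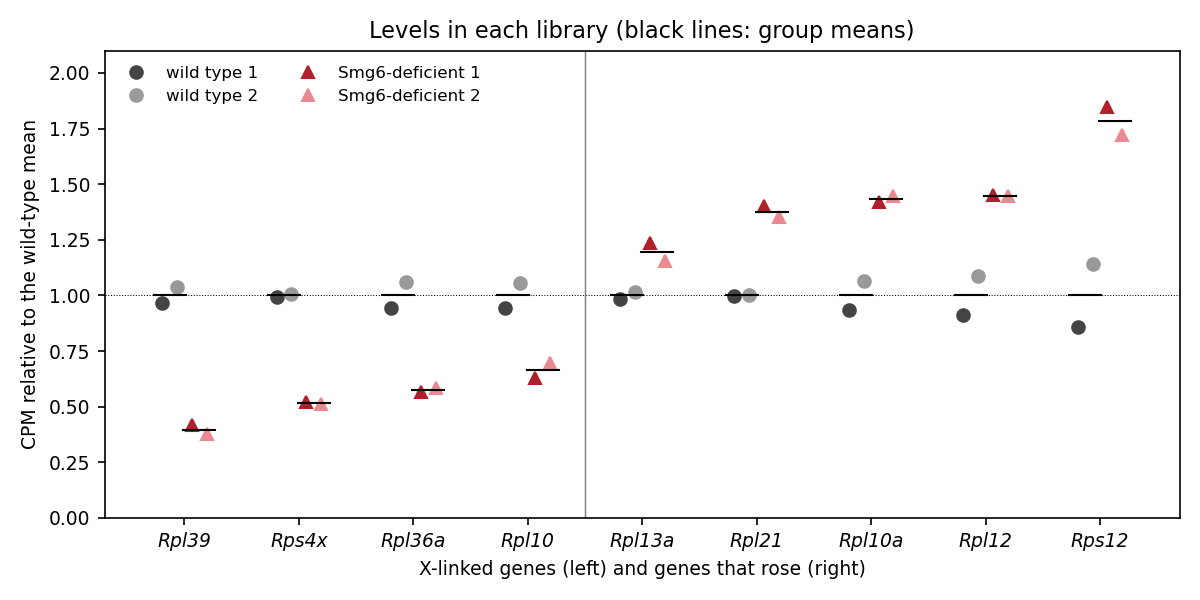
CPM in each of the 4 libraries relative to the wild-type mean, for the 4 X-linked members (left) and the 5 members that rose (right), with black lines for group means. In all 9 genes the Smg6-deficient triangles lie on 1 side of both wild-type circles.

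Against this trend 5 members rose, 4 of the large subunit and 1 of the small. Rps12, a protein of the small subunit's head, was at 5.01 and 6.65 CPM in wild type and 10.8 and 10.04 CPM in Smg6-deficient cells. Its log2 fold change of 0.83 (SE 0.16, edgeR adjusted p = 0.00768) was the largest rise, from 702 counts in wild-type replicate 1. Rpl12, at the base of the stalk where elongation factors bind, was at 61.1 and 72.5 CPM in wild type and 96.9 and 96.6 CPM in Smg6-deficient cells, with a log2 fold change of 0.53 (SE 0.10, edgeR adjusted p = 0.00700). Both rises held under all 20 alternatives, and wild-type replicate 1 was the lowest library for both. The 21 pseudogenes named after Rps12 held 31.5% of its counts in that library, and adding them lowered its log2 fold change to 0.59. The 2 named after Rpl12 held 0.105%, so adding them could hardly change its value. Pseudogenes without the gene's name were not added. Rpl10a, the protein of the mobile L1 stalk, was at 78.5 and 89.6 CPM in wild type and 119 and 121 CPM in Smg6-deficient cells, with a log2 fold change of 0.52 (SE 0.091, edgeR adjusted p = 0.00533). It passed in 19 of 20 alternatives, but its 2 named pseudogenes held 408% of its own counts in wild-type replicate 1, and with their counts added the log2 fold change was 0.015 (edgeR adjusted p = 0.897). Rpl21, of the large subunit, was at 16.2 and 16.2 CPM in wild type and 22.7 and 21.9 CPM in Smg6-deficient cells, with a log2 fold change of 0.46 (SE 0.092, edgeR adjusted p = 0.00870). Rpl21 lost its call without Smg6-deficient replicate 1 and with limma on log2(RPKM + 1). Rpl13a, known also as a part of a complex that silences inflammatory mRNAs, was at 344 and 355 CPM in wild type and 432 and 403 CPM in Smg6-deficient cells, with a log2 fold change of 0.26 (SE 0.084, edgeR adjusted p = 0.0484). Rpl13a was nearest to the threshold and lost its call in 11 of 20 alternatives, among them leaving out either Smg6-deficient library. Of the windows found only in Rps12 and in no other gene, 97.4% lay outside its representative mRNA, in its other annotated transcripts, and for Rpl10a the share was 96.5%. Whether the counts of these genes rest on such transcripts was not tested.

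Among the autosomal falls the 4 largest were Rpl37, Rpl37a, Rps15a and Rpl26. Rpl37, a zinc-binding protein of the large subunit, was at 34.4 and 34.6 CPM in wild type and 25.9 and 23.8 CPM in Smg6-deficient cells, with a log2 fold change of -0.47 (SE 0.091, edgeR adjusted p = 0.00743). Rpl37a, likewise zinc-binding, was at 25.6 and 23.2 CPM in wild type and 18.5 and 16.8 CPM in Smg6-deficient cells, with a log2 fold change of -0.47 (SE 0.10, edgeR adjusted p = 0.0129). Neither gene's libraries overlapped between genotypes, and with the length curve removed neither passed (edgeR adjusted p = 0.128 and 0.336). Rps15a, of the small subunit's body, was at 118 and 130.3 CPM in wild type and 93.2 and 89.4 CPM in Smg6-deficient cells, with a log2 fold change of -0.45 (SE 0.085, edgeR adjusted p = 0.00719). Rpl26, of the large subunit, was at 120.4 and 128 CPM in wild type and 95.4 and 90.2 CPM in Smg6-deficient cells, with a log2 fold change of -0.42 (SE 0.081, edgeR adjusted p = 0.00772). Rps15a and Rpl26 lost their calls in 1 of 20 alternatives, the one without Smg6-deficient replicate 2. Rpl7, of the large subunit, was at 279 and 273 CPM in wild type and 216 and 212 CPM in Smg6-deficient cells and fell (log2 fold change -0.37, edgeR adjusted p = 0.0103). Rpl22, a large-subunit protein dispensable for translation in general, was at 521 and 540.3 CPM in wild type and 434 and 421 CPM in Smg6-deficient cells and fell (log2 fold change -0.31, edgeR adjusted p = 0.0225). Rpl7 and Rpl22 lost their calls without either Smg6-deficient library, and Rpl37 and Rpl37a without replicate 2.

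The other falls, named here after their values were seen, were smaller. In the small subunit Rps20, next to the mRNA in the head, was at 348 and 363 CPM in wild type and 286 and 274 CPM in Smg6-deficient cells (log2 fold change -0.34, edgeR adjusted p = 0.0154). Rps14, whose loss in people with a deletion of its chromosome arm causes anaemia, was at 362 and 378 CPM in wild type and 312 and 280.3 CPM in Smg6-deficient cells (log2 fold change -0.32, edgeR adjusted p = 0.0295). Rps2, at the mRNA entry, was at 419.7 and 405 CPM in wild type and 343 and 336 CPM in Smg6-deficient cells (log2 fold change -0.28, edgeR adjusted p = 0.0310). Each had both Smg6-deficient libraries below both wild-type libraries. Rps24, mutated in Diamond-Blackfan anaemia, was at 91.8 and 92.6 CPM in wild type and 77.9 and 76.0 CPM in Smg6-deficient cells (log2 fold change -0.26, edgeR adjusted p = 0.0322), and Rps21 at 153 and 154 CPM in wild type and 135 and 119 CPM in Smg6-deficient cells (log2 fold change -0.28, edgeR adjusted p = 0.0470). In the large subunit Rpl31 was at 16.0 and 16.2 CPM in wild type and 12.46 and 12.6 CPM in Smg6-deficient cells (log2 fold change -0.36, edgeR adjusted p = 0.0274). Rpl32 was at 412 and 399 CPM in wild type and 341 and 315 CPM in Smg6-deficient cells (log2 fold change -0.31, edgeR adjusted p = 0.0276). Neither gene's libraries overlapped between genotypes. Rpl23, one of the proteins that bind Mdm2, was at 125 and 123 CPM in wild type and 104 and 105 CPM in Smg6-deficient cells (log2 fold change -0.25, edgeR adjusted p = 0.0353), and Rpl34 at 148 and 146 CPM in wild type and 126 and 123 CPM in Smg6-deficient cells (log2 fold change -0.24, edgeR adjusted p = 0.0414). All 9 lost their calls without either Smg6-deficient library, and 8 of the 9, all but Rps20, with the length curve removed.

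Among the 48 members that did not pass, log2 fold changes ran from -0.47 for Rpl19 to 0.52 for Rps27. The members nearest to the threshold from outside were Rpl19 at 3.41 and 3.78 CPM in wild type and 2.55 and 2.66 CPM in Smg6-deficient cells (edgeR adjusted p = 0.0523), Rps18 at 115 and 115 CPM in wild type and 100.2 and 97.1 CPM in Smg6-deficient cells (edgeR adjusted p = 0.0546) and Rpl38 at 19.8 and 19.3 CPM in wild type and 16.6 and 15.8 CPM in Smg6-deficient cells (edgeR adjusted p = 0.0613). Rpl19 and Rpl38 lay as far from wild type as several genes that passed, and Rps18 (-0.22) lay closer than any of them. Over the 20 alternatives Rpl19 passed in 11, Rps18 in 8 and Rpl38 in 7. Rps6, the substrate of the S6 kinases, was at 6.43 and 5.80 CPM in wild type and 7.11 and 6.70 CPM in Smg6-deficient cells (log2 fold change 0.18, edgeR adjusted p = 0.319). Once its 4 named pseudogenes were counted in, the value for Rps6 turned to -0.22. Rps3, of the mRNA entry site, was at 1492 and 1517 CPM in wild type and 1386 and 1337 CPM in Smg6-deficient cells (log2 fold change -0.14, edgeR adjusted p = 0.220). Rps19, another gene of Diamond-Blackfan anaemia, was at 53.6 and 58.9 CPM in wild type and 65.9 and 59.0 CPM in Smg6-deficient cells (log2 fold change 0.15, edgeR adjusted p = 0.248), with 1 Smg6-deficient library level with a wild-type one. Rps10 was at 25.3 and 26.8 CPM in wild type and 31.2 and 30.1 CPM in Smg6-deficient cells (log2 fold change 0.23, edgeR adjusted p = 0.0766), higher in both Smg6-deficient libraries, but with the counts of its 3 named pseudogenes added its log2 fold change was -0.031. Adding named pseudogenes turned the sign in 6 of the 55 members that have them. Rpl19, Rps18, Rpl38, Rps6, Rps3, Rps19 and Rps10 were chosen after their values were seen.

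Among the most abundant members Rplp1 and Rps26 fell, and Rpl8, Rpl4 and Rps15 did not pass. Rpl8 was at 2089 and 1971 CPM in wild type and 1932 and 1780.2 CPM in Smg6-deficient cells, with a log2 fold change of -0.13 (SE 0.094, edgeR adjusted p = 0.311). Rpl4 was at 2762 and 2772 CPM in wild type and 2468 and 2439 CPM in Smg6-deficient cells, with a log2 fold change of -0.17 (SE 0.087, edgeR adjusted p = 0.155). In both genes both Smg6-deficient libraries lay below both wild-type libraries. Rps26 was at 305 and 304 CPM in wild type and 251 and 236 CPM in Smg6-deficient cells and fell (log2 fold change -0.33, edgeR adjusted p = 0.0188). Rps15 did not pass (log2 fold change -0.082, edgeR adjusted p = 0.464). With length corrected the log2 fold changes of Rpl8, Rpl4 and Rps15 were 0.14, 0.0082 and 0.22. Rps26 did not pass once length was corrected (edgeR adjusted p = 0.910) or without either Smg6-deficient library.

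Of the 3 stalk genes, whose proteins recruit elongation factors, 1 fell. Rplp1 was at 574 and 592 CPM in wild type and 491 and 469.8 CPM in Smg6-deficient cells and fell (log2 fold change -0.28, edgeR adjusted p = 0.0349), a call lost in 9 of 20 alternatives and turned to 0.032 by the length curve. Its partners Rplp0 (log2 fold change -0.093, edgeR adjusted p = 0.395) and Rplp2 (log2 fold change -0.15, edgeR adjusted p = 0.168) did not pass. Whether Rplp1 differed from them was not tested. Rpl5 and Rpl11 bind 5S ribosomal RNA and, when free, the p53 regulator Mdm2. Rpl5 was at 45.1 and 46.0 CPM in wild type and 38.3 and 41.8 CPM in Smg6-deficient cells (log2 fold change -0.18, edgeR adjusted p = 0.13), and Rpl11 at 7.40 and 7.45 CPM in wild type and 8.06 and 8.33 CPM in Smg6-deficient cells (log2 fold change 0.14, edgeR adjusted p = 0.361). Neither passed. Rpl11 had the lowest mean wild-type RPKM of all members, but its 1036 and 997 wild-type counts were not the fewest. Rpl3, of the peptidyl transferase centre and like Rpl12 known for an NMD-sensitive splice form, was at 61.5 and 65.2 CPM in wild type and 63.6 and 57.2 CPM in Smg6-deficient cells. Its libraries overlapped between genotypes (log2 fold change -0.068, edgeR adjusted p = 0.579). Rps27 was at 0.736 and 0.934 CPM in wild type and 1.32 and 1.07 CPM in Smg6-deficient cells, all near 1 CPM, and its log2 fold change of 0.52 (SE 0.24, edgeR adjusted p = 0.123) did not pass.

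Falls outnumbered rises in both subunits, but with length corrected the small subunit had 4 rises and 3 falls and a median of 0.081. The median of all tested genes was then 0.054, and their share of calls under that fit is not given here. Of 45 large-subunit genes 13 fell and 4 rose (28.9% and 8.89%), and of 30 small-subunit genes 9 fell and 1 rose (30% and 3.33%). Over all tested genes the shares in this fit were 19.2% lower and 20.5% higher. The median log2 fold change was -0.16 for the large and -0.12 for the small subunit, a difference of -0.039 that had no test. It ran over the alternatives from -0.15 with length and GC content corrected to 0.0036 with pseudogene counts added. Both Smg6-deficient libraries lay below wild type in 32 of 45 large-subunit genes (71.1%) and in 17 of 30 small-subunit genes (56.7%). The same held for 35.9% of all tested genes. Among autosomal members the medians were -0.15 over 42 genes and -0.094 over 29. The summed RPKM of the large subunit was 1.77 times that of the small subunit in both wild-type libraries and 1.79 and 1.82 times in Smg6-deficient replicates 1 and 2. These sums run over 45 and 30 genes, and the median RPKM per gene went the other way. In wild type it was 31.7 and 30.1 for the large and 47.6 and 46.6 for the small subunit. In Smg6-deficient cells it was 27.1 and 23.65 for the large and 42.6 and 37.2 for the small subunit. Large-subunit genes took 1.03% of counts in each wild-type library and 0.903% and 0.864% in Smg6-deficient cells. For small-subunit genes the shares were 0.719% and 0.720%, and then 0.615% and 0.580%.

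Members were then divided by annotated features that the symbol rule had not used. Of the 5 genes that rose 4 (Rps12, Rpl12, Rpl10a and Rpl13a) have an annotated transcript of NMD biotype, as do 17 members in all. In these 17 genes 4 rose and 2 fell (23.5% and 11.8%), with a median of -0.068. In the other 58 genes 1 rose and 20 fell (1.72% and 34.5%), with a median of -0.18. Among all tested coding genes, 33.3% of those with such a transcript and 20.7% of those without were higher, and 14.6% and 22.3% were lower. Genes with such a transcript were also longer. Median counted lengths were 2350 and 1429 nt for members with and without one, and 4230 and 3351 nt for all tested coding genes. Rpl3, Rpl14 and Rps9 are among the 11 of the 17 that did not pass, the last 2 named after their values were seen. The 29 members with a snoRNA gene inside them held 4 rises and 7 falls (13.8% and 24.1%), and the other 46 held 1 and 15 (2.17% and 32.6%). By shared sequence, 13 fell and 1 rose (50% and 3.85%) among the 26 members with at most 50% of windows shared. Among the 49 above, 9 fell and 4 rose (18.4% and 8.16%). Of all tested genes 20.5% rose and 19.2% fell. Across the 75 members, Spearman's rho of log2 fold change was 0.34 with the shared percentage, -0.36 with mean wild-type RPKM and 0.063 with counted length, values that share libraries and are given as description. These features overlap between members, and no difference between the subsets was tested.

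The TOP motif was sought as an unbroken run of at least 6 C or T letters, on the sense strand only, that touched the 30 bases from 10 before to 20 after the annotated start (RefSeq, GRCm38.p6). The start windows of the X-linked members and of the 4 members that rose and have an entry are shown, with the run in capitals where there was one.
Rps12 (chr10:23787190-23787219, minus strand): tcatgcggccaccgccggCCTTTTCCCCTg
Rpl12 (chr2:32961702-32961731, plus strand): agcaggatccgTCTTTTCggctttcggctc
Rpl10a (chr17:28328461-28328490, plus strand): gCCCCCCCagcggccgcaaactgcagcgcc
Rpl13a (chr7:45128726-45128755, minus strand): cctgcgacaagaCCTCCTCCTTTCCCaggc
Rpl39 (chrX:37085203-37085232, minus strand): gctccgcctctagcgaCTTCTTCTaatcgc
Rps4x (chrX:102189372-102189401, minus strand): gctgggcggagcaacccaggctccagcgcg
Rpl36a (chrX:134585644-134585673, plus strand): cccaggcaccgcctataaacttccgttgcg
Rpl10 (chrX:74270806-74270835, plus strand): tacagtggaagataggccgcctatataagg
Rps12, Rpl12, Rpl10a, Rpl13a and Rpl39 hold such a run and Rps4x, Rpl36a and Rpl10 do not, which says only whether these letters lie near the annotated start. The run of Rpl10a ends before that start, and those of Rps12, Rpl12, Rpl13a and Rpl39 begin after it. A run counted here therefore need not be a TOP motif. Of the 55 members with an entry 36 (65.5%) held a run, against 36.3% of 32851 promoters. The 36 gave 4 rises and 10 falls (11.1% and 27.8%) with a median of -0.15. The 19 without gave 0 rises and 6 falls (0% and 31.6%) with a median of -0.21. Of all tested genes 20.5% rose and 19.2% fell.

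Ribosomal proteins outside the symbol rule gave small differences as well. Rps3a1, of the small subunit, was at 115 and 109 CPM in wild type and 96.5 and 93.1 CPM in Smg6-deficient cells and fell (log2 fold change -0.24, edgeR adjusted p = 0.0484). Fau, which makes a ribosomal protein fused to a ubiquitin-like protein, did not pass (log2 fold change -0.13, edgeR adjusted p = 0.337). Rack1, a signalling scaffold on the small subunit, was at 2382 and 2273 CPM in wild type and 2224 and 2157 CPM in Smg6-deficient cells and did not pass (log2 fold change -0.087, edgeR adjusted p = 0.467). Of 8 tested paralogues 2 fell and 0 rose, where 19.2% of all tested genes fell and 20.5% rose. Rpl10l, the autosomal copy of Rpl10, was at 58.8 and 45.5 CPM in wild type and 23.8 and 18.4 CPM in Smg6-deficient cells, with a log2 fold change of -1.30 (SE 0.17, edgeR adjusted p = 0.00166). Rps27l was at 143 and 144 CPM in wild type and 114 and 108 CPM in Smg6-deficient cells and fell (log2 fold change -0.37, edgeR adjusted p = 0.01002). Rpl39l, the autosomal copy of Rpl39, was at 37.1 and 26.3 CPM in wild type and 24.8 and 17.1 CPM in Smg6-deficient cells and did not pass (log2 fold change -0.60, edgeR adjusted p = 0.0678). The partners of X-linked Rps4x and Rpl36a, Rps4l (-0.17) and Rpl36al (-0.17), did not pass, so none of the 4 autosomal copies of X-linked members rose. The falls of Rps3a1 and Rps27l were lost without either Smg6-deficient library, that of Rps3a1 also without wild-type replicate 1, and that of Rpl10l held under all 20 alternatives. Rpl3l (0.20), Rpl7l1 (0.25) and Rpl22l1 (0.070) did not pass either.

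Among mitochondrial ribosomal protein genes, which serve the separate ribosome of that organelle, rises and falls were nearly equal in number. Of 77 tested genes 10 rose and 9 fell (13.0% and 11.7%, against 20.5% and 19.2% of all tested genes), and their median was -0.060. Mrpl38 was at 51.7 and 44.0 CPM in wild type and 77.5 and 69.7 CPM in Smg6-deficient cells, with a log2 fold change of 0.62 (SE 0.11, edgeR adjusted p = 0.00504), and Mrpl57 at 30.5 and 28.9 CPM in wild type and 23.3 and 22.1 CPM in Smg6-deficient cells, with a log2 fold change of -0.39 (SE 0.091, edgeR adjusted p = 0.0158), named as the highest and lowest of the calls. Below 1000 nt their median was -0.15, close to the -0.14 of the cytosolic genes, and from 1000 to 2000 nt it was -0.040, against -0.21. From 2000 to 4000 nt it was -0.030, against -0.14. At 4000 nt and over it was -0.069 (12 genes), against -0.14 (5 genes). The difference between the sets was not tested.

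Other genes of the same programme were counted from lists. Beside them, 20.5% of all tested genes were called higher and 19.2% lower. Among genes of 4000 nt and over 29.7% were higher, and the lists were not divided by length. Of 15 further TOP mRNAs 2 fell and 1 rose, with a median of -0.065. Eef1a1, the elongation factor that delivers tRNA, was at 3609 and 3782 CPM in wild type and 2982 and 2930.1 CPM in Smg6-deficient cells and fell (log2 fold change -0.32, edgeR adjusted p = 0.0294). Hnrnpa1, a splicing factor, fell (log2 fold change -0.29, edgeR adjusted p = 0.0418), and Eif4b, an initiation factor, rose (log2 fold change 0.26, edgeR adjusted p = 0.0405). All 3 calls were lost without either Smg6-deficient library, and that of Hnrnpa1 also without wild-type replicate 1. Of 17 regulators of mTORC1 and TOP translation 7 rose and 1 fell, with a median of 0.19. Tsc2, an inhibitor of mTORC1, was at 82.3 and 79.7 CPM in wild type and 156 and 152 CPM in Smg6-deficient cells (log2 fold change 0.93, edgeR adjusted p = 0.000395). Mtor, the kinase of the complex, was at 91.2 and 91.0 CPM in wild type and 161 and 149.7 CPM in Smg6-deficient cells (log2 fold change 0.77, edgeR adjusted p = 0.000807). Rps6kb2, a kinase of Rps6, was at 8.87 and 7.83 CPM in wild type and 17.3 and 18.1 CPM in Smg6-deficient cells (log2 fold change 1.09, edgeR adjusted p = 0.000846). These 3 rises held under all 20 alternatives. Rheb, the activator of mTORC1 that Tsc2 restrains, was the gene that fell (log2 fold change -0.38, edgeR adjusted p = 0.0101). Of 17 dedicated chaperones, importins and late assembly factors 7 rose and 2 fell, with a median of 0.23. Ipo7, an importin for ribosomal proteins, was at 353 and 359 CPM in wild type and 492 and 524 CPM in Smg6-deficient cells (log2 fold change 0.51, edgeR adjusted p = 0.00383). Sbds, which helps release Eif6 from the large subunit, was at 67.8 and 65.2 CPM in wild type and 92.4 and 91.8 CPM in Smg6-deficient cells (log2 fold change 0.47, edgeR adjusted p = 0.00398). X-linked Tsr2, the chaperone of Rps26, was at 162 and 153 CPM in wild type and 81.2 and 75.6 CPM in Smg6-deficient cells and fell (log2 fold change -1.01, edgeR adjusted p = 0.000402). The calls of Ipo7, Sbds and Tsr2 held under all 20 alternatives. Nmd3, the export adaptor of the large subunit, fell as well (log2 fold change -0.38, edgeR adjusted p = 0.0164). Rheb and Nmd3 were named after their values were seen.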

How the data were processed

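RNA was extracted with TRIzol, prepared with an Illumina TruSeq v2 kit, which does not mark strand, and sequenced as single reads of 50 nt, per the labels' protocols. TopHat2 2.0.9 and mm10 are named in the submitters' processing notes, and the counter, its annotation and its handling of multiply aligned reads are not given in these sources. The authors deposited whole-number counts and RPKM values for each library. The RPKM denominators of replicates 2 do not match their count totals, and the limma-trend alternatives use these RPKM values. Symbols came from GENCODE M21 (35449 of 37224 identifiers, 95.2%).

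Genes passing edgeR's filterByExpr at a minimum count of 10 entered a quasi-likelihood fit on genotype alone (edgeR 4.0.16, R 4.3.3, TMM factors), with Benjamini-Hochberg adjustment over all 20895 of them and a threshold of 0.05. CPM uses the TMM-scaled library size. Counted length was inferred from deposited counts and RPKM, and divided by 1.144, its median ratio over genes to the combined exon length in GENCODE M21. Recovery of known changes by the edgeR fit was checked on simulated data. Alternatives used DESeq2 1.42.0, limma 3.58.1, mgcv 1.9.3 for curves on length and GC content, other scaling factors and filters, added pseudogene counts, a replicate block and leaving out each library.

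Named genes were the X-linked members, the 8 largest rises and 8 largest falls among calls with libraries that did not overlap, the 3 highest by RPKM per subunit, the stalk and 5S partners, Rpl3, Rpl12, members with paralogues, and up to 3 calls per list. The values of 2 genes that the rule named are not reported here. Members and lists were chosen with earlier results of these data known. Library totals were 137643993 and 130888768 (wild type) and 155391181 and 137937779 (Smg6-deficient).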

Additional observations from a re-analysis of the deposited data

How the results depend on the processing

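As reported, 22 members fell and 5 rose, with median log2 fold changes of -0.15 (all), -0.16 (large) and -0.12 (small subunit) and a difference of -0.039 between subunits. A correction for gene length gave 9 lower (6 large, 3 small) and 8 higher (4 small), with medians of 0.035, 0.0076, 0.081 and a difference of -0.073. With length and the replicate number as a block together, these were 9 (6, 3), 8 (4), 0.038, 0.0075, 0.083 and -0.075. With length and GC content they were 9 lower (5, 4), 3 small-subunit genes higher, 0.0041, -0.046, 0.11 and -0.15. The robust length curve, added after seeing the data, gave 2 small-subunit genes higher, medians of -0.083, -0.12, -0.050 and a difference of -0.065. All tested genes had medians of 0.054 (length), 0.058 (length and block), 0.059 (length and GC content) and -0.014 (robust curve). The shares of all tested genes called under the alternatives are not given here. Limma-trend gave 12 lower (3 small) with log2(RPKM + 1) and log2(RPKM + 0.1), 3 higher (2 large) with the first, and medians of -0.19, -0.20, -0.16 and -0.19, -0.20, -0.16. Medians were -0.21, -0.22, -0.18 with library size alone, -0.21, -0.22, -0.18 with limma-voom, -0.19, -0.19 (all, large) with upper-quartile factors and -0.19, -0.20 (all, large) with at least 50 counts in 2 libraries. Adding pseudogene counts gave -0.18 for the small subunit and a difference of 0.0036. Leaving out each library in turn gave 4 to 28 members lower and 3 to 7 higher, 3 to 18 and 2 to 4 of the large and 1 to 10 and 1 to 3 of the small subunit. The medians then ran from -0.19 to -0.11 (all), -0.19 to -0.12 (large) and -0.17 to -0.073 (small), and the difference from -0.072 to -0.015. Where 1 library was left in a group, it was assumed to vary like the other group. The cause of these changes was not tested.

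The log2 fold changes that turned sign with length were Rpl8 0.14, Rpl4 0.0082, Rplp1 0.032, Rps15 0.22, Rplp0 0.055, Rpl3 0.12, Fau 0.15, Rps3a1 0.010, Rpl36al 0.022 and Rps4l 0.084. The log2 fold changes that turned sign with length and the replicate block were Rpl8 0.14, Rpl4 0.0082, Rplp1 0.033, Rps15 0.22, Rplp0 0.055, Rpl3 0.12, Fau 0.15, Rps3a1 0.012, Rpl36al 0.029 and Rps4l 0.094. The log2 fold changes that turned sign with length and GC were Rpl4 0.10, Rps26 0.062, Rplp0 0.047, Rpl3 0.14, Rps3a1 0.10, Rpl36al 0.079 and Rps27l 0.072. The log2 fold changes that turned sign with the robust length curve were Rpl8 0.0019, Rps15 0.092 and Fau 0.013. Leaving out each library gave ranges across 0 of -0.14 to 0.018 for Rpl3, -0.33 to 0.00082 for Rpl36al and -0.34 to 0.019 for Rps4l. None of these passed where its sign had turned. Over 47 named genes and 20 alternatives, 795 values kept direction and side of the threshold, 86 lost the call in the same direction, 26 gained one and 33 turned sign. The replicate block alone gave 23 lower and 5 higher with a median of -0.15. The labels do not say that equal numbers share a source, and same-numbered libraries' deviations correlated at 0.15 over all genes and -0.045 over the members, so they were treated as unpaired. Depth limits Rps27 (103 counts in wild-type replicate 1), and 2 libraries a group limit all calls. Whether sequence shared with pseudogenes lowered the counts of members was not tested.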
